A study of Mus musculus with 36 samples.

Results

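Mitochondria carry their own ribosome, built from RNAs encoded by mitochondrial DNA and from proteins that are encoded in the nucleus, made in the cytosol and imported. The genes for these mitochondrial ribosomal proteins have symbols that start with Mrpl (large subunit) or Mrps (small subunit) followed by a number, and every gene with such a symbol in the 2 deposited expression tables was taken as a member. This gave 78 of the 9844 genes of the tissue table and 77 of the 8001 genes of the sorted-cell table, with 77 in both and Mrps28 in the tissue table alone. All 78 passed the filter on low values (at least 1 TPM in at least 3 tissue libraries), and all 77 passed that of the sorted table (at least 1 TPM in at least 5 libraries).

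The libraries were made from eosinophils, granulocytes of blood and mucosal tissues, which were flow-sorted from C57BL/6 mice of 8 to 12 weeks, males and females pooled, at steady state. Wildtype mice gave total eosinophils of the small intestine (4 libraries), colon (3), skin (3), lung (3), spleen (4), bone marrow (3) and blood (4). NMUR1-TdT reporter mice, which carry a red fluorescent reporter for Nmur1 (a receptor for neuromedin U, a peptide released by neurons), gave small intestine eosinophils sorted as Nmur1 positive (5 libraries) or Nmur1 negative (6 libraries). Whether the libraries of a group came from separate animals is not stated in the labels. The p-values therefore rest on the spread between libraries, which may be partly technical. A further single-cell library of small intestine eosinophils was not analysed here.

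The mitochondrial ribosome translates only the few proteins that mitochondrial DNA encodes, all of them core parts of the respiratory chain complexes and the ATP synthase. Its large subunit joins amino acids, its small subunit reads the messenger, and much of the RNA of a bacterial ribosome is replaced by protein, so that many of its proteins have no bacterial counterpart. Mature granulocytes are known for few mitochondria and for energy from glycolysis, while their dividing precursors in the marrow depend more on mitochondria.

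Among the members, 51 belong to the large subunit and 26 to the small one, and 48 of these 77 have a bacterial relative while 29 are specific to mitochondria. Mrps30 and Mrps18a count as large because structures place them there despite their names, and Mrps36 counts as neither because it is now known as a part of the oxoglutarate dehydrogenase complex. In the annotation of build mm10 (GENCODE M21), the 78 members lie on 17 chromosomes. A coding gene starts on the other strand within 1000 bases of the start of 33 of the 78 members (42.3%), against 18.04% of the 9734 coding genes of the table that were found. The median of the longest transcript was 1866 bases over members and 3421 bases over those coding genes.

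The promoters of 5 members are shown because the results below turn on these genes, which are among the members that differ most between tissues. The sequences are from RefSeq (build GRCm38.p6), run 5′ to 3′ on the strand of the gene, and cover 250 bases before to 50 bases after the RefSeq start. The regions are chr16:92058086-92058385 (plus strand) for Mrps6, chr11:97315466-97315765 (plus strand) for Mrpl45, chr5:31613701-31614000 (plus strand) for Mrpl33, chr17:12916042-12916341 (minus strand) for Mrpl18 and chr1:79775768-79776067 (plus strand) for Mrpl44. The RefSeq starts of Mrpl33, Mrpl18 and Mrps6 lie inside the longer gene spans of GENCODE M21. The windows of Mrpl33 and Mrpl18 lie wholly inside these spans (chr5:31596935-31664384 and chr17:12911349-12916345). Capitals mark matches, on either strand, to the motif of nuclear respiratory factor 1 (NRF1), which reads GCGC, any 1 base and then TGCGC, or to CCGGAAG, the motif of ETS factors such as GABP.
Mrps6: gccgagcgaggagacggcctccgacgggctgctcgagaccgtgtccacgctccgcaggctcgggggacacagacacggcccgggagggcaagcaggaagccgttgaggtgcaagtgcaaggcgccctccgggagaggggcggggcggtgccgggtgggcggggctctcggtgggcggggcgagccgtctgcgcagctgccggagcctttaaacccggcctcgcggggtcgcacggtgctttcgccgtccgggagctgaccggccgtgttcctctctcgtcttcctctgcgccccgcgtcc
Mrpl45: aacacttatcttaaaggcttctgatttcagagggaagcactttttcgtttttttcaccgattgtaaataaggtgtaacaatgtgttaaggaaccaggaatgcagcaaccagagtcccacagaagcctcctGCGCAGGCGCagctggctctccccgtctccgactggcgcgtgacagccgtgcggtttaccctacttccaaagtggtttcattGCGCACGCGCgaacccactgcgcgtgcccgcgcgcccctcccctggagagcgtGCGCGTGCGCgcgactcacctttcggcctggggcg
Mrpl33: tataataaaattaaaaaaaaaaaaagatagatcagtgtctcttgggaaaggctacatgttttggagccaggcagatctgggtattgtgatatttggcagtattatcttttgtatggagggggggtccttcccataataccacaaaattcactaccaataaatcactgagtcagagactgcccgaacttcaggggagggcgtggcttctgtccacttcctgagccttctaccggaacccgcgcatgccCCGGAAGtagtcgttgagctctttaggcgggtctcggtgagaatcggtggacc
Mrpl18: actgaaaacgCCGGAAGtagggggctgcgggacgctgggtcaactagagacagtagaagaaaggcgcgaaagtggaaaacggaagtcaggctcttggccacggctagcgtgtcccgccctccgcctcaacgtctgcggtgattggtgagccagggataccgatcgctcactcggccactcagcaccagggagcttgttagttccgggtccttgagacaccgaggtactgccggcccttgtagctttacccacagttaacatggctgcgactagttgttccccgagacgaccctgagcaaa
Mrpl44: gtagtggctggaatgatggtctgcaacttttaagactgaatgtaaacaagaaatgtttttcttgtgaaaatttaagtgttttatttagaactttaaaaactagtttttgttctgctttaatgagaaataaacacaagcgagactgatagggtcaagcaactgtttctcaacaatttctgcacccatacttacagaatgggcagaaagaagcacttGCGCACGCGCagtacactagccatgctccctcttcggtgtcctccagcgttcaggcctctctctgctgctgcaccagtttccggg
Mrpl45 held 3 matches to the NRF1 motif, Mrpl44 held 1 NRF1 match, Mrpl33 and Mrpl18 held 1 ETS match each, and Mrps6 held neither motif in this window. Promoters were found for 69 of the 78 members. The NRF1 motif was present in 18.8% of them, against 12.8% of the table's genes with a promoter and 5.19% of all genes of the RefSeq table. A gene with several promoters counted if any of them held the motif. The ETS motif was present in 37.7% of members, against 23.0% of the table's genes and 9.93% of all genes of the RefSeq table. The motif AAGATGGCG of the factor YY1 was present in 11.6% of members, against 4.17% of the table's genes, while the MYC E-box CACGTG was present in 7.25% of members, against 12.2% of the table's genes. The TATA box TATAAA was present in 7.25% of members and in 8.47% of the table's genes. These shares describe letters in a window and say nothing of whether a factor binds there.

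Values are TPM, the share of a library's transcripts that a gene makes up on a common scale, which correct for transcript length, so levels may be compared between genes. How deeply each library was sequenced cannot be read from TPM and is unknown here. The deposited columns sum to between 796048 and 890768 in the tissue table. Lung libraries held fewer genes at 1 TPM or more (7826 ± 53.2, SD, n = 3) than blood libraries (8601 ± 44.1, SD, n = 4). Of 11 eosinophil markers, the eotaxin receptor Ccr3 was between 274 and 1590 TPM and Siglecf between 105 and 347 TPM in all 24 libraries. Some others were low in certain tissues. The granule gene Epx averaged 1520 TPM in bone marrow and 114 TPM in the spleen. It averaged 1.29 TPM in blood, 1.02 TPM in the lung, 1.26 TPM in the skin and 0.833 TPM in the small intestine, and was listed at 0 in the colon. Ear1 and Ear2 averaged 1.67 and 0.727 TPM in the colon, and Il1rl1 0.47 TPM in the small intestine. The 10 markers of neutrophils and precursors summed to 5872 to 7709 TPM in the small intestine, 11560 to 13850 TPM in the colon, 4307 to 12320 TPM in the skin, 65910 to 75130 TPM in the lung, 52070 to 67310 TPM in the spleen, 67440 to 76490 TPM in bone marrow and 58530 to 65500 TPM in blood. Retnlg made up most of this sum outside bone marrow, with 58500 to 65464 TPM in blood. The 8 erythroid and platelet genes summed to 86.6 to 17800 TPM in the small intestine, 106 to 357 TPM in the colon, 68.9 to 1512 TPM in the skin, 2267 to 29130 TPM in the lung, 71.0 to 39580 TPM in the spleen, 7797 to 18470 TPM in bone marrow and 39170 to 118900 TPM in blood. The part of either list in the comparisons with blood was not tested. In spleen replicate 1 the summed level of the members was 5168 TPM, above the 3676 to 4094 TPM of the other 3 spleen libraries.

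The summed level of the 78 members was highest in bone marrow and lowest in lung. It was 3326 ± 80.2 TPM in the small intestine (n = 4), 3387 ± 238 TPM in the colon (n = 3), 4201 ± 161 TPM in the skin (n = 3) and 2954 ± 140 TPM in the lung (n = 3), all with SD. It was 4242 ± 644 TPM in the spleen (n = 4), 4715 ± 325 TPM in bone marrow (n = 3) and 3637 ± 125 TPM in blood (SD, n = 4). Without spleen replicate 1 the spleen value was 3934 ± 225 TPM (SD, n = 3). The small intestine and the colon lay within each other's spread, bone marrow libraries (4341 to 4924 TPM) lay above all blood libraries (3501 to 3753 TPM), and lung libraries (2859 to 3115 TPM) lay below them. After median-ratio scaling, which sets each library to a typical gene, the sum was 3833 ± 155 in the lung and 3542 ± 39.2 in blood (SD). The low place of the lung in this sum thus depended on the scaling, and the sum leans on its highest members. Without Mrpl33 and Mrps21 the deposited sum was 1822 ± 65.7 TPM in the lung and 2668 ± 109 TPM in blood (SD). The median member was still lower in lung than in blood after the scaling. Its difference was -0.44 on the log2(TPM + 1) scale, where that of the median gene was -0.12. After this scaling the small intestine (2996) and the colon (3042) had the lowest sums, and bone marrow (4869 ± 188, SD) still had the highest. The skin, whose libraries lay above blood as deposited, had a scaled sum of 3583 ± 190 (SD) and overlapped with blood. Since the libraries are bulk samples, fewer cells of a type with high levels and less RNA per cell cannot be told apart.

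**Figure D1:**
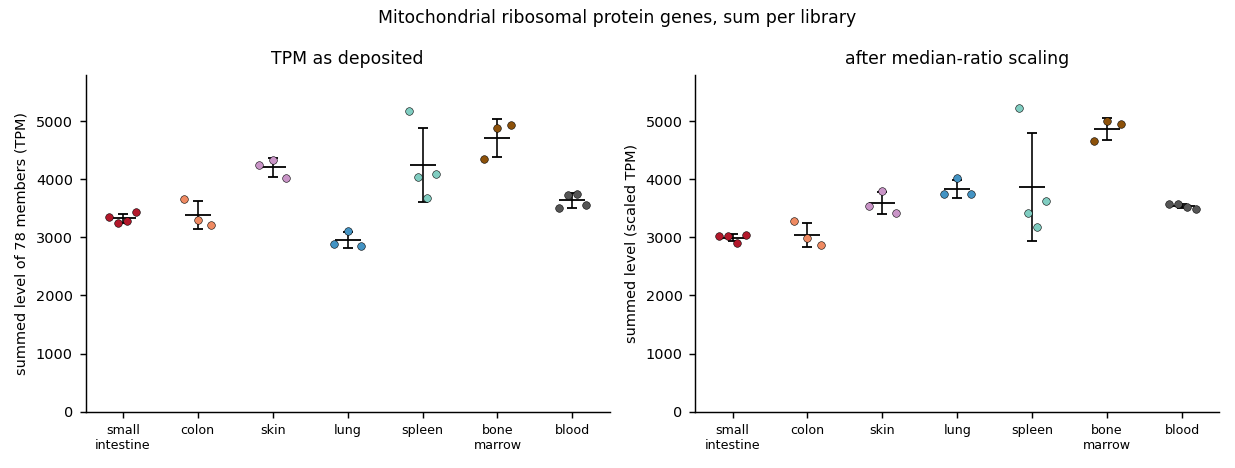
Summed level of the 78 members in each of the 24 tissue libraries, as deposited TPM (left) and after median-ratio scaling (right). Points are libraries, the horizontal bar is the mean and the whiskers are 1 SD. Bone marrow lies above blood in both panels, and lung lies below blood on the left only.

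Most members were above 0 in every library. The median member averaged 29.7 TPM over the tissue libraries, against 14 TPM for the median gene of the table. Of the 78 members, 70 were above 0 in every tissue library (89.7%), against 73.8% of all genes. Levels still spanned a ratio of 133 between the highest and the lowest member, with 8 members over 100 TPM, 61 between 10 and 100 TPM and 9 under 10 TPM. Mrpl33 and Mrps21 together made 21.04% of the summed level. The lung libraries held 3 to 4 members listed at 0 each, and no other tissue library held any. The spread between libraries of a tissue was like that of other genes, with a median residual SD of 0.478 on the log2(TPM + 1) scale over members and 0.481 over all genes.

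The 3 highest members were Mrpl33, Mrps21 and Mrpl20, and the 3 lowest were Mrps27, Mrps31 and Mrps2. Mrpl33, the relative of bacterial L33 in the large subunit, averaged 244 ± 19.7 TPM in the small intestine, 363 ± 8.83 TPM in the colon, 538 ± 34.6 TPM in the skin and 865 ± 76.0 TPM in the lung. It averaged 753 ± 250 TPM in the spleen, 446 ± 43.0 TPM in bone marrow and 688 ± 31.6 TPM in blood (SD, n = 3 or 4). The small intestine was lowest in all 4 libraries, and it did not overlap with any other tissue. Mrps21 (the relative of bacterial S21) averaged 156 ± 18.7 TPM in the small intestine and 281 ± 26.4 TPM in blood, the ends of its order. Mrpl20, which in bacteria helps the large subunit to assemble, averaged 179 ± 5.18 TPM in the skin, 98.2 ± 24.4 TPM in the small intestine and 115 ± 9.65 TPM in blood. Mrps2, the relative of bacterial S2, averaged 10.2 ± 1.14 TPM in bone marrow, 0.367 ± 0.635 TPM in lung and 0.755 ± 0.531 TPM in blood. Mrps27, a pentatricopeptide repeat protein of the small subunit, averaged 9.29 ± 5.90 TPM in bone marrow, 0.203 ± 0.210 TPM in lung and 2.98 ± 2.62 TPM in blood. Mrps31 averaged 6.99 ± 1.29 TPM in bone marrow, 0.62 ± 0.859 TPM in lung and 4.70 ± 3.92 TPM in blood, and lung and blood overlapped.

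The order of the members by mean level was close between bone marrow, spleen and blood and less close between these and the gut. Over the 78 members, Spearman's rho was 0.973 between spleen and blood, 0.932 between bone marrow and blood and 0.934 between small intestine and colon. It was 0.740 between small intestine and blood and 0.755 between colon and blood. These are correlations across genes within these libraries, and genes are not independent replicates.

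Levels were compared among the 7 tissues with limma's moderated F test on log2(TPM + 1) over the 9806 genes tested. It called 76 of the 78 members at an adjusted p under 0.05, where 81.1% of all genes tested were called. Mrpl10 (adjusted p = 0.0518) and Mrpl27 (adjusted p = 0.0757) were not called by limma. The 5 smallest p-values belonged to Mrps6, Mrpl18, Mrpl33, Mrpl9 and Mrpl44. Bone marrow held the highest tissue mean for 38 of the 78 members, against 21.7% of all genes, and skin for 19, against 22% of all genes. Lung held the lowest mean for 53 members, against 40.6% of all genes. After median-ratio scaling these counts were 49 members highest in bone marrow and 34 lowest in lung, against 26.1% and 25.9% of all genes.

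**Figure D2:**
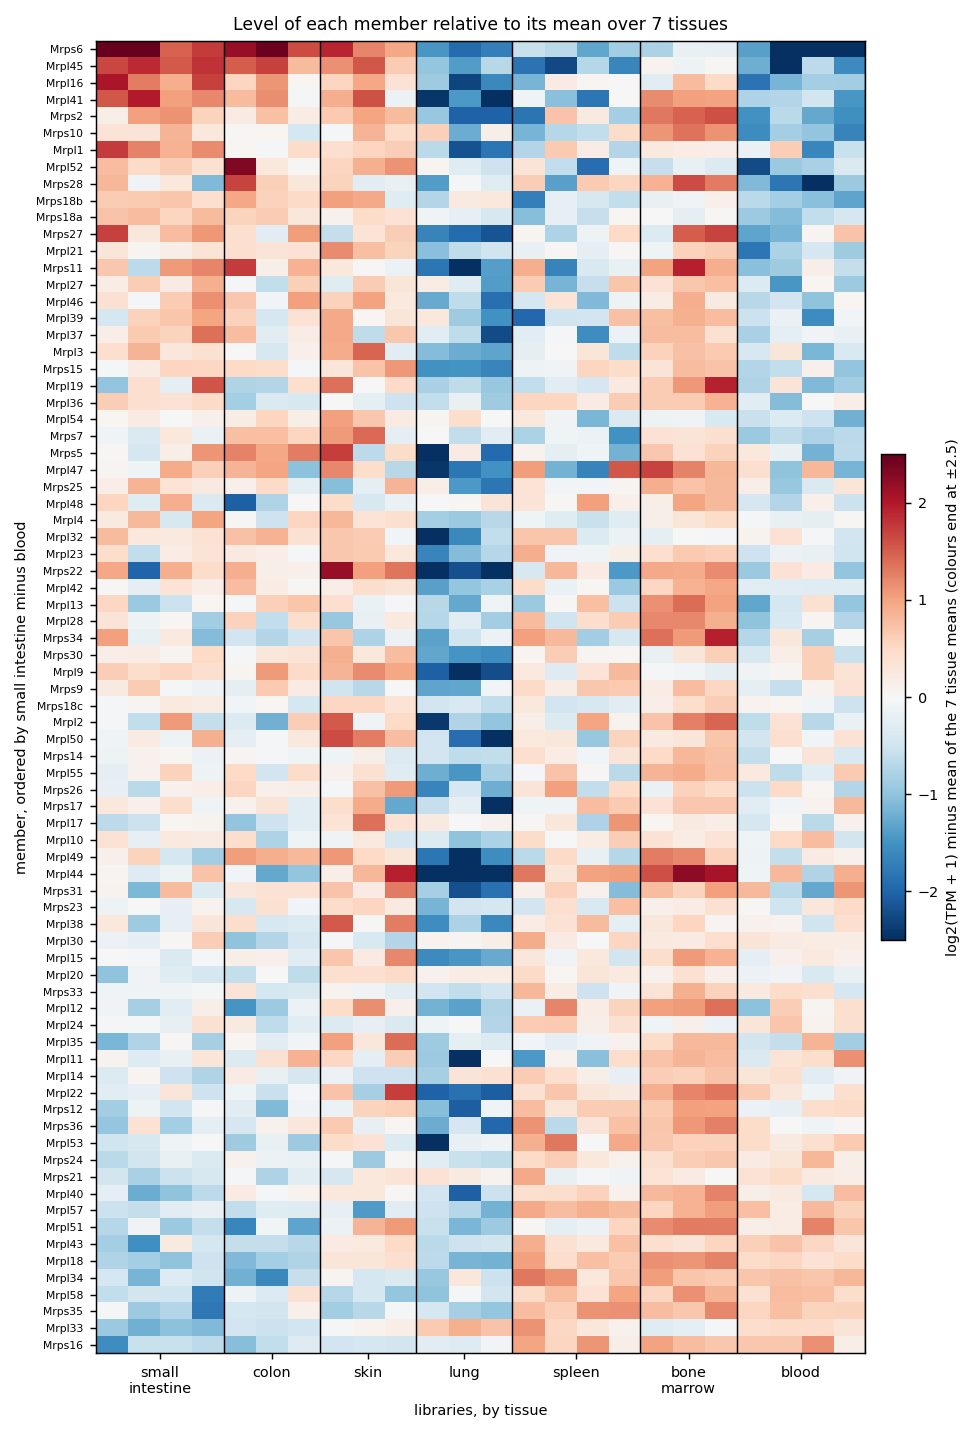
Level of each of the 78 members (rows) in each tissue library (columns), as log2(TPM + 1) minus the mean of the 7 tissue means, ordered by the difference between small intestine and blood. Red is above and blue below the member's mean. Mrps6, Mrpl45 and Mrpl16 at the top are high in the small intestine and low in blood, Mrpl33 and Mrps16 at the bottom are the reverse, and much of the lung column block is blue.

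Mrps6, the small subunit protein related to bacterial S6, had the smallest p of the F test among tissues (limma adjusted p = 4.3e-11). It had 156, 155, 64.3 and 77.2 TPM in the small intestine, 105, 127 and 71.3 TPM in the colon, and 86.3, 53.2 and 45.0 TPM in the skin. It had 7.58, 5.15 and 6.18 TPM in the lung, 14.9, 13.6, 8.56 and 11.7 TPM in the spleen, 12.6, 19.5 and 19.2 TPM in bone marrow, and 8.09, 1.98, 0.81 and 2.55 TPM in blood. Every small intestine, colon and skin library lay above every library of the other 4 tissues. On mm10 Mrps6 spans chr16:92058270-92112227 on the plus strand, and it shares 159 exon bases with Slc5a3, a myo-inositol transporter gene read on the same strand, and 305 with the predicted gene Gm49711. Slc5a3 was between 1.01 and 2.29 TPM in the small intestine, 1.57 and 3.46 TPM in the colon, 5.11 and 5.21 TPM in the skin and 0.02 and 0.56 TPM in blood. Reads in the shared bases could be split either way, so the value of Mrps6 is uncertain to that extent.

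Mrpl45, a large subunit protein that sits near the exit of the peptide tunnel and tethers the ribosome to the inner membrane, followed a like order (limma adjusted p = 5.5e-09). It had 52.8, 60.4, 47.8 and 58.2 TPM in the small intestine, 47.2, 54.6 and 28.3 TPM in the colon, and 36.5, 48.5 and 25.2 TPM in the skin. It had 7.64, 5.39 and 9.40 TPM in the lung, 3.73, 2.53, 9.29 and 4.44 TPM in the spleen, 17.1, 14.5 and 16.4 TPM in bone marrow, and 6.28, 1.65, 9.75 and 4.64 TPM in blood. The small intestine, colon and skin lay above all other libraries, bone marrow lay between, and lung, spleen and blood overlapped.

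Mrpl18, the relative of bacterial L18, was low in the gut and in the lung (limma adjusted p = 4.7e-11). In the gut it ran against Mrps6 and Mrpl45, while all of these genes were low in the lung. It had 30.7, 28.5, 25.4 and 35.9 TPM in the small intestine, 23.8, 28.6 and 30.5 TPM in the colon and 32.5, 22.6 and 22.5 TPM in the lung. It had 64.5, 64.4 and 70.0 TPM in the skin, 108, 70.7, 88.8 and 80.9 TPM in the spleen, 116, 113 and 125 TPM in bone marrow, and 71.9, 75.2, 67.4 and 72.2 TPM in blood. The gut and lung libraries overlapped with each other and with none of the other tissues. Mrpl18 shares 141 exon bases with Tcp1, a chaperonin gene, on the opposite strand, and use of strand in the counting is not given in the sources used here.

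Mrpl44, a large subunit protein related to RNase III, was near 0 in the lung and high in bone marrow (limma adjusted p = 5.2e-09). It was listed at 0, 0 and 0.28 TPM in the lung, against 34.1, 52.9 and 46.5 TPM in bone marrow and 9.62, 19.0, 5.77 and 20.5 TPM in blood. No lung library reached the lowest library of any other tissue (3.69 TPM, colon). It shares 126 exon bases with Wdfy1 on the opposite strand. Mrpl9 had 7.41, 3.27 and 6.46 TPM in the lung, against 31.4, 35.4, 51.3 and 43.0 TPM in blood, and was at 26.8 TPM or more in every library outside the lung (limma adjusted p = 2.1e-09 over the 7 tissues). It shares 157 exon bases with Oaz3 on the opposite strand.

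**Figure D3:**
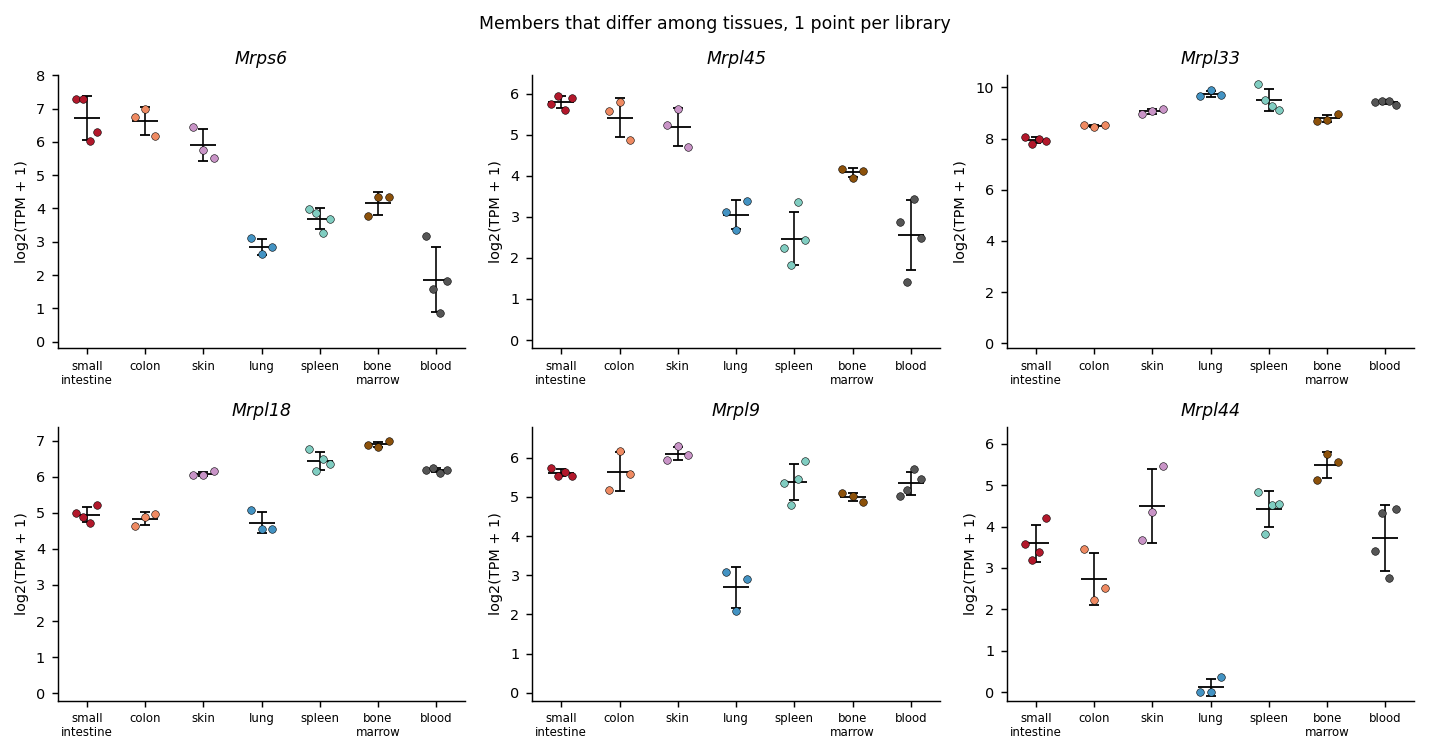
Level of 6 members as log2(TPM + 1) in each tissue library. Points are libraries, the horizontal bar is the mean and the whiskers are 1 SD. Mrps6 and Mrpl45 are high in small intestine, colon and skin, Mrpl33 is lowest in the small intestine, and Mrpl9 and Mrpl44 are lowest in the lung.

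Each tissue was then set against blood, through which eosinophils made in the marrow reach the other tissues. All 6 of these comparisons share the 4 blood libraries, so likeness between them is in part that of blood. Changes below are differences of mean log2(TPM + 1) minus the median difference of all genes tested, given with the standard error (SE), while calls are limma's test against no change before that shift. The medians taken off were 0.14 for the small intestine, 0.10 for the colon, 0.17 for the skin, -0.43 for the lung, 0.11 for the spleen and 0.06 for bone marrow.

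Bone marrow eosinophils had more mitochondrial ribosomal protein RNA than blood eosinophils across both subunits. Of the 78 members, 36 rose, where 19.3% of all genes were called higher, and 1 fell, where 15.3% were called lower. The members' median change was 0.76, and 72 members lay above the median gene. The groups did not overlap, with bone marrow above, for 46 members (59%, against 25.2% of all genes), and with bone marrow below for 1 (against 22.2%). In either direction limma called 37 members (47.4%, against 34.6%). In the large subunit 24 of 51 rose and 1 fell, and in the small subunit 12 of 26 rose.

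Mrps28, the relative of bacterial S1, had 19.5, 33.9 and 26.8 TPM in bone marrow, against 4.27, 2.21, 0.69 and 4.90 TPM in blood, and rose by 2.85 ± 0.53 (SE; limma adjusted p = 1.1e-04). Mrps2 had 9.05, 10.3 and 11.3 TPM in bone marrow, against 0.42, 1.53, 0.67 and 0.40 TPM in blood, and rose by 2.65 ± 0.46 (limma adjusted p = 4.5e-05). Mrps10, a small subunit protein related to bacterial S10, had 27.4, 32.7 and 27.7 TPM in bone marrow, against 3.41, 6.32, 5.64 and 3.14 TPM in blood, and rose by 2.41 ± 0.40 (limma adjusted p = 2.2e-05). All 3 of these genes were higher in each bone marrow library than in any blood library. Mrpl33 had 414, 429 and 495 TPM in bone marrow, against 690, 709, 710 and 642 TPM in blood, and was the member that fell, by 0.69 on the log2 scale (SE 0.16, limma adjusted p = 0.0025).

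Several members with a role of their own were among those that rose in bone marrow. Mrpl12, the stalk protein that recruits translation factors, averaged 30.1 ± 4.31 TPM in bone marrow and 14.1 ± 6.204 TPM in blood (SD, change 1.09, limma adjusted p = 0.0272, no overlap). Mrpl44 rose by 1.70 (limma adjusted p = 0.0024) and Mrps34, which small subunit stability needs, by 1.72 (limma adjusted p = 0.0064). Mrpl10 and Mrpl11, which form the base of the stalk, and the decoding centre protein Mrps12 had changes of 0.06, 0.33 and 0.70 that did not pass the test (limma adjusted p = 0.803, 0.609 and 0.0829). The marrow libraries also differed from blood in marker genes. The 10 proliferation genes summed to 767 to 849 TPM in bone marrow and 39.7 to 57.5 TPM in blood, where Ccnb1 was at 0. Among the 10 neutrophil and precursor genes, S100a8 was at 15202 to 17941 TPM in bone marrow and 3.23 to 12.9 TPM in blood. Elane was at 5705 to 8373 TPM in bone marrow and 0 to 2.51 TPM in blood. Mpo was at 1912 to 2908 TPM in bone marrow and 0.53 to 3.24 TPM in blood. Retnlg went the other way, with 16051 to 19450 TPM in bone marrow and 58500 to 65464 TPM in blood. In bulk libraries a different state of the eosinophils and other cells among them cannot be told apart. The part of these marker genes in the result was not tested. Without bone marrow replicate 2, or without replicate 3, 21 members rose in place of 36. The share of all genes called was not counted in these settings, so a loss particular to the members cannot be read from this.

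Lung eosinophils had lower levels of many members than blood eosinophils, but how many depended on the scaling. Of the 78 members, 39 fell, where 26.7% of all genes were called lower, and 3 rose, where 8.99% were called higher. The members' median change was -0.39, below a median gene that itself lay 0.43 lower in lung. After median-ratio scaling 17 members fell and 10 rose, where 16.6% of all genes were called lower and 15.6% higher. After quantile normalization 21 fell and 7 rose, where 14.9% of all genes were called lower and 12.3% higher. In either direction 42 members were called (35.7% of all genes), and the groups did not overlap for 34 members lower (28.9%) and 5 higher (10.4%). Among members specific to mitochondria the median change was -0.66 and 19 of 29 fell, and among those with a bacterial relative it was -0.25 and 19 of 48 fell.

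Mrpl44, whose values stand above, fell by 3.18 (SE 0.43, limma adjusted p = 3.6e-07), and Mrpl9 fell by 2.23 (SE 0.27, limma adjusted p = 2.0e-08). Mrpl22, the relative of bacterial L22 that lines the peptide tunnel, had 5.23, 5.95 and 5.01 TPM in the lung, against 37.9, 29.9, 22.3 and 32.2 TPM in blood, and fell by 1.85 (SE 0.36, limma adjusted p = 2.3e-05). None of these 3 overlapped between lung and blood. Mrps30, named small but placed in the large subunit, averaged 2.57 ± 0.311 TPM in the lung and 8.90 ± 3.72 TPM in blood (SD, limma adjusted p = 0.0013). Mrpl10, Mrpl11, Mrpl12 and Mrps12 also fell in the lung, by 0.46, 1.21, 0.67 and 0.79 (limma adjusted p = 0.0241, 0.0147, 0.0346 and 0.0058), though each of the 4 overlapped with blood. Lung libraries held more genes at 0 than blood libraries (10.8% against 5.92% of all genes, means), and the part of this in the result was not tested.

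The 3 members that rose in the lung were Mrps10 with 18.8, 4.57 and 13.5 TPM in the lung, against 3.41, 6.32, 5.64 and 3.14 TPM in blood, then Mrps18b and Mrpl54. Mrps18b, a small subunit protein related to bacterial S18, had 24.7, 48.6 and 50.02 TPM in the lung, against 25.6, 22.7, 19.7 and 16.1 TPM in blood. Mrpl54 had 118, 153 and 111 TPM in the lung, against 76.1, 88.6, 78.4 and 48.2 TPM in blood, with no overlap. The changes were 1.52 ± 0.40 for Mrps10, 1.31 ± 0.32 for Mrps18b and 1.25 ± 0.25 for Mrpl54 (SE, limma adjusted p = 0.0325, 0.0338 and 0.0117). Mrps10 and Mrps18b overlapped between lung and blood. Without lung replicate 2, lung replicate 3 or blood replicate 4, 1 member rose in place of 3. Mrps10 missed the threshold without blood replicate 1 or 4 or lung replicate 1 or 3 (limma adjusted p = 0.077 to 0.211). Mrps18b missed it without blood replicate 3 or 4 or lung replicate 2 or 3 (limma adjusted p = 0.0635 to 0.144). Mrpl54 missed it without blood replicate 4 or lung replicate 2 (limma adjusted p = 0.0529 and 0.0679). With only lung and blood in the fit, Mrps10 and Mrps18b also missed it (limma adjusted p = 0.134 and 0.0552).

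Skin eosinophils had members called in both directions, more of them higher. Of the 78 members, 24 rose, where 22.9% of all genes were called higher, and 8 fell, where 14.2% were called lower, with a median change of 0.47. In either direction 32 members were called (37.1% of all genes), and the groups did not overlap for 26 members higher (24.9%) and 9 lower (15.1%). After quantile normalization 16 rose and 13 fell, where 16.5% of all genes were called higher and 18.6% lower. The 4 macrophage and dendritic cell markers in the table summed to 265 to 576 TPM in the skin and 65.0 to 87.3 TPM in blood, where C1qa and C1qb were at 0, and their part in the result was not tested. Mrps6 rose by 3.88 ± 0.40 (SE, limma adjusted p = 1.4e-08) and Mrpl45 by 2.47 ± 0.39 (SE, limma adjusted p = 5.8e-06), with the values given above and no overlap with blood. Mrps2 had 5.35, 7.04 and 6.02 TPM in the skin, against 0.42, 1.53, 0.67 and 0.40 TPM in blood, and rose by 1.89 ± 0.46 (limma adjusted p = 9.1e-04).

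The members that fell most in the skin were Mrpl58, Mrpl57 and Mrps35. Mrpl58, the peptidyl-tRNA hydrolase also known as Ict1 that frees stalled ribosomes, had 20.8, 25.6 and 17.3 TPM in the skin, against 45.7, 60.1, 60.03 and 47.8 TPM in blood, and fell by 1.46 (SE 0.29, limma adjusted p = 8.2e-04). Mrpl57 had 80.9, 34.4 and 78.3 TPM in the skin, against 160, 106, 165 and 140 TPM in blood, and fell by 1.38 (SE 0.23, limma adjusted p = 1.7e-04). Mrps35 had 29.4, 33.4 and 53.9 TPM in the skin, against 79.95, 92.4, 81.4 and 82.0 TPM in blood, and fell by 1.305 (SE 0.28, limma adjusted p = 0.0026). None of the 3 overlapped between skin and blood.

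Colon eosinophils had 18 of 78 members higher than blood, where 19.9% of all genes were called higher, and 11 lower, where 12% were called lower. The median change was 0.07, close to that of the median gene. In either direction 29 members were called (31.9% of all genes), and the groups did not overlap for 18 members higher (23.3%) and 12 lower (16.1%). After quantile normalization 12 rose and 17 fell, where 14.8% of all genes were called higher and 18.1% lower. The same macrophage and dendritic cell markers summed to 170 to 245 TPM in the colon, and their part was not tested. Mrps6 rose by 4.67 ± 0.40 (SE, limma adjusted p = 7.4e-10) and Mrpl45 by 2.77 ± 0.39 (SE, limma adjusted p = 2.0e-06). Mrps28 had 35.2, 16.1 and 12.7 TPM in the colon, against 4.27, 2.21, 0.69 and 4.90 TPM in blood, and rose by 2.40 ± 0.53 (limma adjusted p = 6.5e-04).

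In the colon the largest falls were those of Mrpl34, Mrpl51 and Mrpl18, all of the large subunit. Mrpl34, the relative of bacterial L34, had 22.0, 16.2 and 34.3 TPM in the colon, against 84.3, 86.8, 84.6 and 92.4 TPM in blood, and fell by 1.97 (SE 0.28, limma adjusted p = 1.1e-05). Mrpl51 had 6.13, 20.1 and 7.87 TPM in the colon, against 23.8, 24.04, 51.0 and 34.5 TPM in blood, and fell by 1.67 (SE 0.35, limma adjusted p = 0.0011). Mrpl18 fell by 1.45 (SE 0.18, limma adjusted p = 1.4e-06). Colon and blood did not overlap for any of the 3.

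Small intestine eosinophils had 20 of 78 members higher than blood, where 26% of all genes were called higher, and 12 lower, where 18% were called lower, so both shares were under those of all genes. In either direction 32 members were called (44% of all genes), and the groups did not overlap for 17 members higher (24.9%) and 12 lower (17.2%). The median change was 0.11, and after quantile normalization 13 rose and 18 fell, where 20.3% of all genes were called higher and 24.4% lower. The macrophage and dendritic cell markers summed to 117 to 394 TPM in the small intestine, and their part was not tested. Mrps6 rose by 4.72 ± 0.37 (SE, limma adjusted p = 5.7e-11), Mrpl45 by 3.11 ± 0.36 (SE, limma adjusted p = 4.1e-08) and Mrpl16 by 2.53 ± 0.38 (SE, limma adjusted p = 2.1e-06). Mrpl16, the relative of bacterial L16 near the tRNA sites of the large subunit, had 52.3, 30.6, 23.4 and 41.3 TPM in the small intestine, against 2.59, 4.82, 6.21 and 6.14 TPM in blood, with no overlap. Mrps18a and Mrps18b, both related to bacterial S18, rose by 1.32 and 1.43 (limma adjusted p = 1.7e-06 and 1.1e-04), while the change of Mrps18c, the third relative of S18, was 0.09 (limma adjusted p = 0.297). In the structures Mrps18a sits in the large subunit, and the other two in the small one. In the colon the changes of Mrps18a, Mrps18b and Mrps18c were 1.15, 1.54 and -0.14, in the skin 0.90, 1.35 and 0.40, and in bone marrow 0.63, 0.86 and 0.46, and limma called all of these but that of Mrps18c in the colon.

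Mrpl33 fell by 1.63 (SE 0.14, limma adjusted p = 3.5e-09), with 267, 220, 251 and 239 TPM in the small intestine, against 690, 709, 710 and 642 TPM in blood. Mrps16, the relative of bacterial S16, had 9.09, 19.2, 19.0 and 17.9 TPM in the small intestine, against 46.4, 46.3, 64.5 and 31.8 TPM in blood, and fell by 1.63 (SE 0.26, limma adjusted p = 3.2e-05). Mrps35 had 53.4, 28.6, 32.7 and 15.1 TPM in the small intestine, against 79.95, 92.4, 81.4 and 82.0 TPM in blood, and fell by 1.61 (SE 0.26, limma adjusted p = 5.5e-05). Mrpl58 had 22.6, 25.1, 24.5 and 9.79 TPM in the small intestine and fell by 1.55 (limma adjusted p = 1.0e-04). None of these 4 overlapped between small intestine and blood.

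Set against the unweighted mean of the 6 other tissues, the small intestine had 12 of 78 members higher, where 24.7% of all genes were called higher, and 14 lower, where 16.1% were called lower (26 in either direction, against 40.8%). The median change was -0.02 relative to a median gene at 0.11. After median-ratio scaling 8 rose and 15 fell (20.5% and 19% of all genes), and after quantile normalization 6 rose and 17 fell (18.5% and 21.8% of all genes). The largest rises were those of Mrps6 (113 ± 49.1 TPM in the small intestine, SD, against a mean of 33.6 TPM, change 2.43, limma adjusted p = 7.8e-08), Mrpl45 (change 1.89, limma adjusted p = 1.9e-06) and Mrpl16 (change 1.62, limma adjusted p = 2.7e-05). The largest falls were those of Mrpl33 by 1.35, Mrps35 by 1.12 and Mrps16 by 1.08 (limma adjusted p = 1.0e-09, 2.7e-04 and 3.2e-04). With all 20 other libraries as 1 group, 5 members rose and 4 fell, where 10.8% of all genes were called higher and 6.54% lower. Mrps35 missed the threshold in that fit (limma adjusted p = 0.0524).

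Spleen eosinophils differed little from blood eosinophils in these genes. Mrps6 rose, with the values given above, by 1.73 ± 0.37 (SE, limma adjusted p = 0.0095), and it did not overlap with blood. It was 1 of 78 members called higher, where 0.857% of all genes were called higher, and 0 were called lower, where 0.235% were (1.09% in either direction). The groups did not overlap for 5 members higher (3.94% of all genes) and 0 lower (0.826%). At an unadjusted p under 0.05 limma listed 11 members, but the share of all genes at that threshold was not counted, so no result is read from this. Without blood replicate 3, Mrps6 missed the threshold (limma adjusted p = 0.0553), as it did with only spleen and blood in the fit (0.301). Without blood replicate 3, blood replicate 4 or spleen replicate 2, 2 members were called higher.

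**Figure D4:**
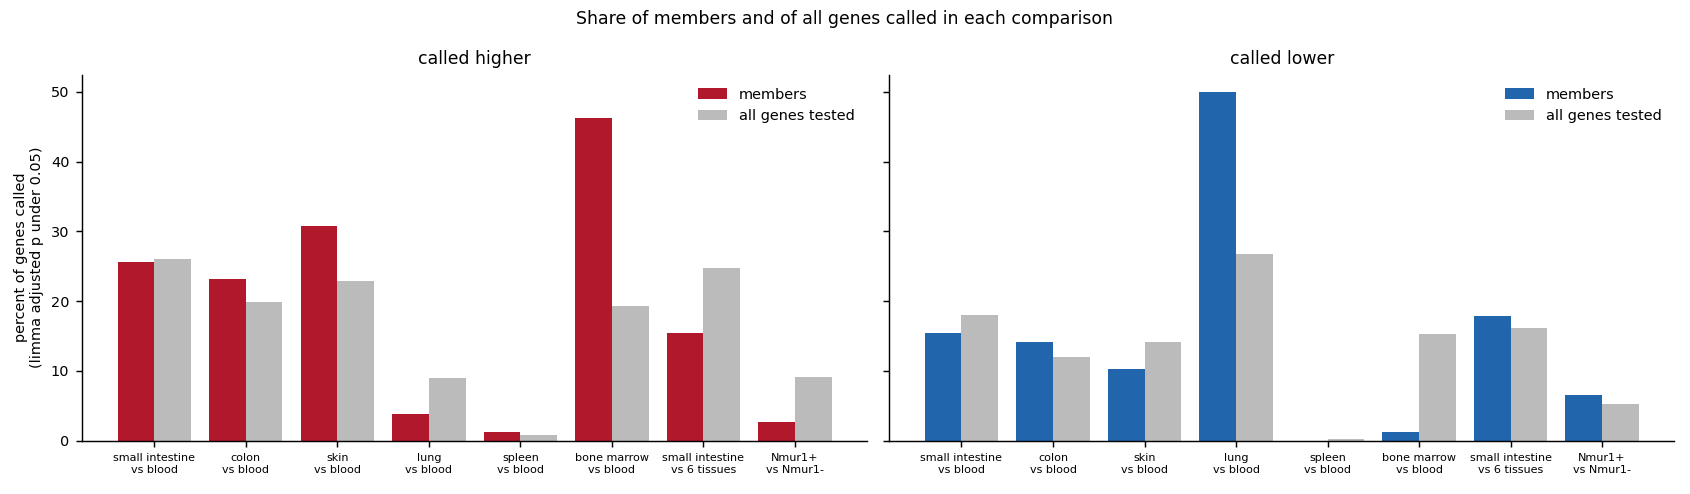
Percent of members (coloured) and of all genes tested (grey) called higher (left) or lower (right) in each comparison by limma at an adjusted p under 0.05, with the tissue or sorted group named before its comparator on the axis. Members exceed all genes most for higher calls in bone marrow (46.2% against 19.3%) and for lower calls in lung (50% against 26.7%).

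In the reporter sort Nmur1 itself was at 25.9 to 53.1 TPM in positive cells (median 45.1, n = 5) and 0 to 15.6 TPM in negative cells (median 7.48, n = 6), with no overlap. Of the 77 members, 2 rose in Nmur1 positive cells, where 9.18% of the 7982 genes tested were called higher, and 5 fell, where 5.25% were called lower (7 in either direction, against 14.4%). The members' median change was -0.23 relative to a median gene that lay 0.22 higher in positive cells, and 22 of 77 members lay above that gene. The summed level was 3247 ± 327 TPM in positive cells (n = 5) and 3706 ± 255 TPM in negative cells (SD, n = 6), and the groups overlapped. After median-ratio scaling the sum was 2966 ± 285 in positive cells (2665 to 3369) and 3859 ± 353 in negative cells (3417 to 4370, SD). On that scale the groups did not overlap. Replicate numbers 3, 4, 5 and 8 occur in both sorted groups and may mark pairs. With the number as a block 2 members rose and 6 fell, where 10.9% of all genes were called higher and 5.94% lower. After median-ratio scaling 0 rose and 8 fell, where 4.54% of all genes were called higher and 7.42% lower, and after quantile normalization 0 rose and 7 fell, where 5.36% were called higher and 6.63% lower. On the deposited scale limma gave 13 members an unadjusted p under 0.05, a count without the share of all genes beside it. The macrophage and dendritic cell markers summed to 169 to 339 TPM in positive cells and 92.6 to 203 TPM in negative cells, and their part in the result was not tested.

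Mrps18b had 37.0, 49.4, 34.7, 23.98 and 27.5 TPM in Nmur1 positive cells, against a range of 71.4 to 157 TPM in Nmur1 negative cells (median 98.8), and fell by 1.76 (SE 0.22, limma adjusted p = 1.9e-04). Mrpl54 had 79.6, 161, 116, 132 and 95.4 TPM in positive cells, against 175 to 242 TPM in negative cells (median 204), and fell by 1.05 (SE 0.17, limma adjusted p = 0.0033). These 2 members did not overlap between the sorted groups, which held for 2.6% of members and 3.71% of all genes in that direction, while 0 members lay wholly higher (5.65% of all genes). Mrpl16 had 20.3, 11.7, 43.5, 6.80 and 23.6 TPM in positive cells, against 40.6 to 125 TPM in negative cells (median 76.7), and fell by 2.18 (SE 0.37, limma adjusted p = 0.0017). Its groups overlapped through positive replicate 4 and negative replicate 5. Mrpl17 and Mrpl52, both of the large subunit, fell by 0.90 and 0.91 (limma adjusted p = 0.0261 and 0.0439).

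Mrps34 had 7.05, 16.5, 16.0, 11.1 and 13.3 TPM in positive cells, against 2.49 to 12.1 TPM in negative cells (median 4.75), and rose by 0.91 ± 0.34 (SE, limma adjusted p = 0.0358). With the replicate block it missed the threshold (limma adjusted p = 0.0576), as it did without any 1 of 8 of the 11 libraries (0.0527 to 0.0878). Mrps34 shares 1309 exon bases with Mapk8ip3 on the opposite strand and 763 with Nme3 on the same strand, so its value is uncertain, and Nme3 was at 7.69 to 27.6 TPM in positive and 1.62 to 49.6 TPM in negative cells. Mrpl1, the relative of bacterial L1, had 20.3, 23.2, 23.9, 13.9 and 22.4 TPM in positive cells, against 7.12 to 13.95 TPM in negative cells (median 10.95), and rose by 0.67 ± 0.25 (SE, limma adjusted p = 0.0261). Both overlapped, Mrpl1 through positive replicate 5 alone. No member was called higher without positive replicate 3, 4 or 8 or negative replicate 5, 1 was without positive replicate 5 or negative replicate 3, 4 or 7, and 3 fell without positive replicate 1 or negative replicate 8. Mrps6 and Mrpl45 averaged 154 ± 106 and 36.8 ± 12.2 TPM in positive cells and 110 ± 73.5 and 47.5 ± 14.5 TPM in negative cells (SD), and neither passed the test.

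**Figure D5:**
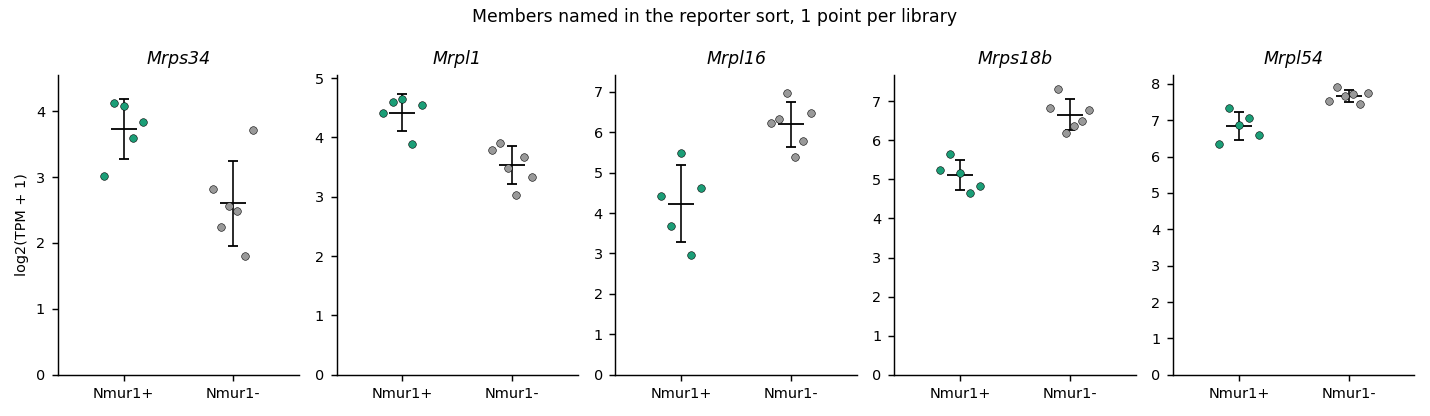
Level of the 5 members named in the reporter sort as log2(TPM + 1), with Nmur1 positive libraries left of Nmur1 negative ones. Points are libraries, the horizontal bar is the mean and the whiskers are 1 SD. Mrps18b and Mrpl54 do not overlap between the groups, while Mrps34, Mrpl1 and Mrpl16 do.

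Other genes of mitochondrial protein synthesis were counted in the same comparisons. The shares of all genes called, beside which these counts stand, were 19.3% higher and 15.3% lower in bone marrow, 8.99% and 26.7% in the lung, 22.9% and 14.2% in the skin, 19.9% and 12% in the colon, and 26% and 18% in the small intestine, each against blood. They were 24.7% higher and 16.1% lower in the small intestine against the other tissues, and 9.18% and 5.25% in the sort. Of 24 measured genes for assembly of the mitochondrial ribosome, 7 rose and 0 fell in the small intestine against the mean of the other tissues, with a median change of 0.48. Ddx28, a helicase of this assembly, averaged 151 ± 21.8 TPM in the small intestine, 86.6 ± 26.1 TPM in the colon, 55.9 ± 15.5 TPM in the lung and 9.46 ± 3.38 TPM in blood (SD). Its change against blood was 3.78 in the small intestine, 2.98 in the colon and 2.89 in the lung (limma adjusted p = 3.1e-11, 2.1e-08 and 1.0e-06). In bone marrow 3 of the 24 assembly genes rose against blood and 0 fell, and in the lung 1 rose and 11 fell. In the sort 3 of 20 rose in positive cells and 0 fell: Nsun4 by 1.24, Trmt2b by 1.08 and Trub2 by 0.81 (limma adjusted p = 0.0155, 0.0066 and 0.0162).

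Of the 13 measured mitochondrial translation factors, 1 rose in bone marrow (Tsfm, an elongation factor), 1 in the skin (Tufm, its partner) and 1 in the colon (Tsfm), 4 fell in the lung, and 0 rose and 2 fell in the small intestine, each against blood by limma. Their median change was 0.67 in bone marrow, -0.67 in the lung and 0.51 in the skin. Of the 5 measured ribosome subunits with other symbols, Chchd1 rose in bone marrow and in the small intestine, and Gadd45gip1 and Ptcd3 fell in the lung. The mitochondrial aminoacyl-tRNA synthetases gave 2 of 19 higher and 0 lower in bone marrow, 0 and 3 in the lung and 3 and 3 in the small intestine. The genes for mitochondrial DNA and RNA gave 2 of 21 higher and 0 lower in bone marrow, 1 and 6 in the lung and 3 and 4 in the small intestine.

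Of 8 measured regulators of mitochondrial biogenesis, 3 rose and 0 fell in the small intestine against blood, 2 and 0 in the colon, 3 and 2 in the skin, 1 and 3 in the lung and 2 and 0 in bone marrow, and in the sort 0 rose and 2 fell. Gabpb1, a subunit of the ETS factor GABP, averaged 177 ± 21.2 TPM in the small intestine and 13.2 ± 3.04 TPM in blood (SD, change 3.53, limma adjusted p = 1.0e-12). Myc, which activates many ribosome genes, averaged 37.6 ± 10.9 TPM in the small intestine and 7.84 ± 2.14 TPM in blood (SD, change 1.97, limma adjusted p = 6.6e-05). In the sort Myc averaged 4.37 ± 2.35 TPM in positive cells and 65.7 ± 14.5 TPM in negative cells (SD) and fell by 3.95 (limma adjusted p = 7.0e-07). Of 27 genes for mitochondrial protein import and proteases, 12 rose and 0 fell in bone marrow, 0 rose and 6 fell in the lung, and 16 rose and 4 fell in the small intestine, against blood.

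The cytosolic ribosomal proteins and the respiratory chain subunits are set beside the members for scale. Of 77 cytosolic ribosomal protein genes, 5 rose and 56 fell in the small intestine against blood with a median change of -0.70, where the 78 members had a median of 0.11. In the skin 3 rose and 62 fell (median -0.96), where the members had a median of 0.47, and in bone marrow 32 rose and 10 fell (median 0.14), where the members had 0.76. The colon gave 2 higher and 58 lower (median -0.85), where the members had 0.07. The lung gave 1 higher and 1 lower (median 0.43), where the members had -0.39. In the sort 74 of 77 cytosolic ribosomal protein genes fell and 0 rose (median -0.92), where 5 of 77 members fell (median -0.23). Of the oxidative phosphorylation subunits of nuclear origin, 36 of 79 rose and 6 fell in bone marrow, 9 rose and 12 fell in the lung, 13 rose and 24 fell in the small intestine, and in the sort 0 of 77 rose and 9 fell. Differences between these lists and the members were not tested.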

How the data were processed

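Per the labels, RNA of flow-sorted mouse eosinophils was copied over its full length by Smart-seq2 and read as 150 bp pairs. The authors deposited 2 tables of TPM with 1 column per library. The submitters' processing notes name RSEM 1.3.3, STAR 2.7.5c, cutadapt 2.10 and build mm10. For the annotation, the removal of genes before deposit and the use of strand, nothing is given in the sources used here.

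Titles of the samples gave the groups and the replicate numbers. Tests used limma 3.58.1 under R 4.3.3 on log2(TPM + 1) (empirical Bayes with trend, 2-sided, Benjamini-Hochberg over all 9806 or 7982 genes tested, threshold 0.05), with 1 fit per table. A pseudocount of 1 understates the change of low genes. The filter asked for 1 TPM in 3 tissue or 5 sorted libraries. Scripts were tested on simulated data. Members and lists were chosen with earlier results of these data known. Named members were the 3 largest rises and falls per comparison, the 5 smallest p-values among tissues, the 3 highest and lowest members, and members with a role of their own.

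Deviations from the group means correlated at 0.164 to 0.225 between libraries of the sort that share a number (4 pairs). For 3 of these 4 positive libraries, the negative library of the same number correlated best. The numbers may thus mark pairs, but whether they stand for shared animals is not known here. The alternatives tried were median-ratio scaling, quantile normalization, a pseudocount of 0.1, no filter, robust estimation, a replicate block, a fit of the compared groups alone and leaving out each library.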

Additional observations from a re-analysis of the deposited data

Results flagged for a closer look

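Single libraries stood apart from the rest of their group in 8 of 111 checks of named members, where chance gives about 5.55, so the number is close to that of chance. In the small intestine, Mrpl58 was at 9.79 TPM in replicate 4, below the 22.6 to 25.1 TPM of the others, Mrps10 was at 22.51 TPM in replicate 3, above 14.8 to 15.7 TPM, and Mrps16 was at 9.09 TPM in replicate 1, below 17.9 to 19.2 TPM. In the spleen, Mrps21 was at 439.01 TPM in replicate 1, above 200 to 221 TPM, Mrps28 was at 3.41 TPM in replicate 2, below 15.4 to 16.8 TPM, and Mrps30 was at 13.94 TPM in replicate 2, above 9.02 to 9.24 TPM. In blood, Mrps35 was at 92.41 TPM in replicate 2, above 79.95 to 82.0 TPM. In the sort, Mrps34 was at 12.13 TPM in Nmur1 negative replicate 8, above 2.49 to 6.06 TPM of the other negative libraries.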

How the results depend on the processing

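Over 17 counts of members and their alternatives, 266 of 298 values lay within 1.5 times the reported count and 32 did not. After median-ratio scaling, lung against blood gave 10 members higher and 17 lower, and the sort gave 0 higher and 8 lower. After quantile normalization, the small intestine against the mean of the other tissues gave 6 higher, lung against blood gave 7 higher and 21 lower, skin gave 13 lower, colon gave 17 lower, small intestine against blood gave 13 higher and the sort gave 0 higher. With only the compared groups in the fit, the small intestine against the 20 other libraries gave 5 higher and 4 lower (10.8% and 6.54% of all genes). Spleen against blood gave 0 higher in such a fit (0.214% of all genes).

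Leaving out each library in turn gave 21 to 33 members higher in bone marrow, 1 to 2 higher in spleen, 1 to 3 higher in lung, and 0 to 2 higher and 3 to 6 lower in the sort. The share of all genes called was not counted with a library left out, so these ranges cannot be set beside it. Of the values for named members under the alternatives (1344 checks), 1296 kept direction and side of the threshold, 40 lost the call, 8 gained it and 0 reversed. Mrpl10 gained a call among tissues in 8 left-out settings (limma adjusted p = 0.0234 to 0.0487), and the call among tissues was lost by Mrpl11 under both scalings and without lung replicate 2, by Mrps31 under quantile normalization and without lung replicate 2, by Mrps30 under quantile normalization and by Mrps34 without bone marrow replicate 3.

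In the tissue table, libraries did not deviate together with the blood library of the same number (correlations of -0.0369 to 0.0392 over 20 pairs). Pairs among the other tissues were not checked. Whether the numbers behind the replicate block mark pairs there is thus not known. With the replicate block the count of members called among tissues was 75, and the share of all genes was not counted for it. Bone marrow gave 37 higher (18.7% of all genes) and lung gave 38 lower (25.6% of all genes). Mrps18b in lung had a limma adjusted p of 0.0545 with this block. In the sort, where shared numbers may mark pairs, the block gave 2 higher and 6 lower (10.9% and 5.94% of all genes). The cause of these changes was not tested. The depth of the libraries is unknown, so no limit of detection can be given for members listed at 0.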
